A study of Rattus norvegicus with 6 samples.

Results

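The genes of branched-chain amino acid breakdown were followed in rat myocardium after ischemia and reperfusion (I/R). They were taken by name: Bcat2, Bckdha, Bckdhb, Bckdk, Dbt, Ppm1k, Hibadh, Ivd, Mccc1 and Mccc2, 10 genes in all. A row was used for 9 of them, out of 28293 genes, and Bckdk, which encodes the kinase of the pathway, is not analysed here. Of the 9 genes, 8 were higher after I/R and 0 were lower, against 25.5% and 7.36% of all genes tested, and only Ppm1k, the phosphatase that switches the pathway on, did not pass the test. The 8 fold changes lay between 2.09 for Dbt and 5.13 for Mccc2. On a scale centred on cardiomyocyte marker genes, whose median also rose, 0 members were called higher and 2, Dbt and Ppm1k, were called lower. On that scale 35 of all 10942 genes tested were called higher and 8923 lower. Their median log2 fold change was -1.96, against -0.25 for the members.

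Leucine, isoleucine and valine are essential amino acids that muscle and heart oxidise in their mitochondria. A transaminase first removes the amino group, and the branched-chain ketoacid dehydrogenase complex (BCKDH) then removes a carboxyl group, the step that commits the carbon to oxidation. A kinase silences this complex by phosphorylating it and a phosphatase reverses that. The 3 amino acids part ways afterwards, with leucine ending in acetyl-CoA and acetoacetate, valine in propionyl-CoA, and isoleucine in both acetyl-CoA and propionyl-CoA.

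The series held total RNA from the myocardium of male, wild-type rats in 6 samples, 3 sham and 3 I/R. In the I/R group the left anterior descending coronary artery was tied for 30 min and then released for 6 h, while the sham labels carry the same 30 min and 6 h without saying what the sham operation left out. The labels give neither strain nor age, nor the part of the heart that was taken, and do not state that each sample came from a separate rat, so p-values measure only the spread between these samples, which may be technical. Values are FPKM, fragments scaled to the length of the gene and the size of the library, and fold changes are differences of log2(FPKM + 0.1), which understates changes of low genes. A gene was called higher or lower at an adjusted p under 0.05 (limma, Benjamini-Hochberg over the 10942 genes whose mean FPKM reached 0.5).

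Several measures of the samples moved together with the groups. The 13 mitochondrially encoded mRNAs took 80.1% to 86.2% of all FPKM in the sham samples and 61.8% to 71.5% in the I/R samples. The 7 cardiomyocyte markers with a row summed to between 3259.8 and 10627 FPKM in sham and to between 21444 and 30871 FPKM in I/R, and 6 of the 7 were called higher. No defining cardiomyocyte marker was at 0, in keeping with the tissue on the label. Fewer cells of a type and less RNA per cell cannot be told apart in such tissue, and the part that these shifts played in the results was not tested. Read totals were not used, and steps in the lowest FPKM values gave depths relative to sham replicate 1. These were 1.181 and 1.135 in sham replicates 2 and 3, and 0.873, 0.935 and 0.882 in I/R replicates 1, 2 and 3. Every I/R sample was thus shallower than every sham sample by this estimate, and what this did to the results was not tested.

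In 37.2% of all genes tested every I/R sample lay above every sham sample. The same held for 8 of the 9 members, 88.9%, the genes that were called higher. Their median log2 fold change, all 9 included, was 2.003 against 0.29 over all genes tested, and 0.66 over the 3784 genes whose mean FPKM reached 5. I/R replicate 1 held the highest level in its group for 9 of 9 members, with a summed level of 345.9 FPKM against 149.3 and 137.5 FPKM in the other I/R samples. The sham samples summed to 71.0, 41.8 and 41.9 FPKM, so the sum was higher in every I/R sample than in any sham sample.

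**Figure D1:**
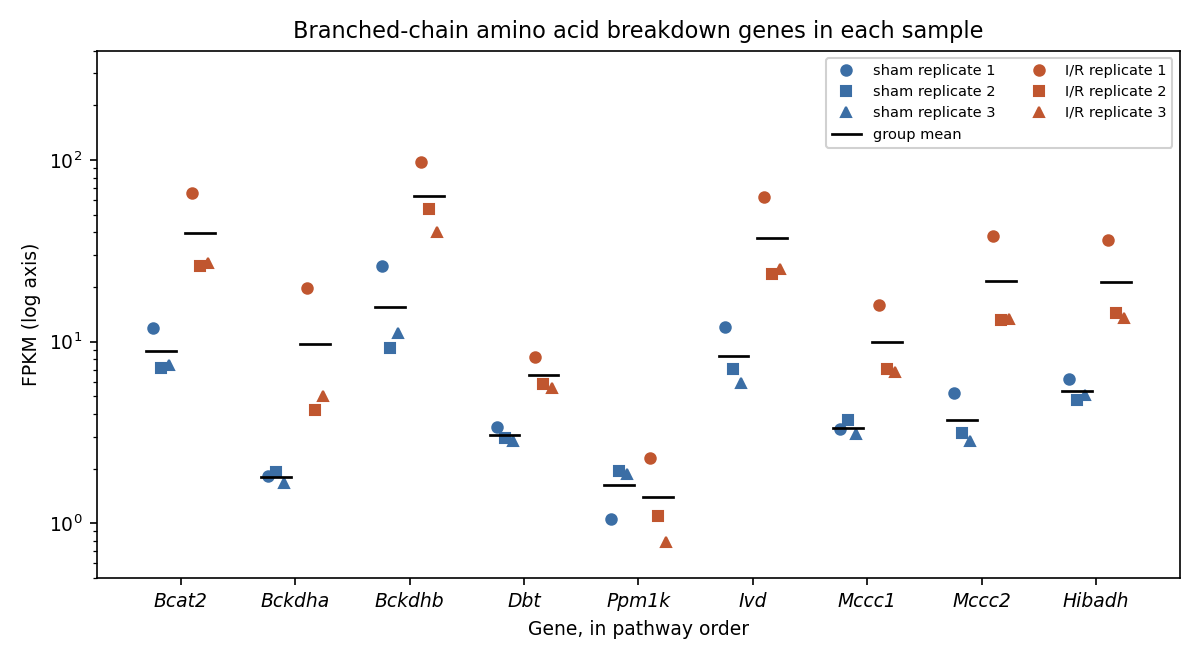
FPKM (log axis) of the 9 members in each of the 3 sham (blue) and 3 I/R (orange) samples, ordered along the pathway, with bars for the group means. The groups do not overlap for 8 genes, I/R replicate 1 is the highest sample for each gene, and Ppm1k alone has interleaved groups, from 0.789 to 2.30 FPKM after I/R.

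The promoters of the members were then read. RefSeq windows (GRCr8) were found for 6 of the members with values, and 3, Bckdha, Ppm1k and Mccc2, had none. No window was thus read for Ppm1k, the member that was not called higher, and a link between matches and changes was not tested. In the 250 bases before the start of the gene, on either strand, the CCAAT box (CCAAT), the letters bound by the factor NF-Y, was present in Mccc1, Dbt, Ivd, Hibadh and Bckdhb, 5 of 6 windows, against 35.6% of the 8022 windows of tested genes and 34.0% of all 33469 windows. At least 2 boxes stood in 4 of the 6, against 12.6% of the windows of tested genes. These 4 are shown because they hold more than a single box: each line gives the 170 bases before the start, 5′ to 3′ on the gene's strand, with CCAAT or its reverse complement ATTGG in capitals. The Mccc1 stretch is chr2:120779242-120779411 on the minus strand, and the others are on the plus strand, Dbt at chr2:207166490-207166659, Ivd at chr3:126305414-126305583 and Bckdhb at chr8:93725107-93725276.
Mccc1: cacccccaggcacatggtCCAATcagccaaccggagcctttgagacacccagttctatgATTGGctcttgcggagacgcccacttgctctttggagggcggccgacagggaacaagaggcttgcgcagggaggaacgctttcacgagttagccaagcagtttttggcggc
Dbt: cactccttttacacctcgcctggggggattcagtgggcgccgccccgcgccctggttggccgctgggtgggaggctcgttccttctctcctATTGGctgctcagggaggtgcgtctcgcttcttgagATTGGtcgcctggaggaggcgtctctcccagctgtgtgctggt
Ivd: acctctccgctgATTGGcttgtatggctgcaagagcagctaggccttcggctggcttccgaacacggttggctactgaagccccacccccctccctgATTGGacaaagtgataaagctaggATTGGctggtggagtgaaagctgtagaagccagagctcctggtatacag
Bckdhb: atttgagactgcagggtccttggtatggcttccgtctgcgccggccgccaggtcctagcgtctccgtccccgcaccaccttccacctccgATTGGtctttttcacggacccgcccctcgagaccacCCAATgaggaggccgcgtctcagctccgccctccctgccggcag

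In Dbt and in Bckdhb, which encode subunits of the same complex, the boxes nearest the start lay 36 bases apart and began 79 and 43 bases and 80 and 44 bases before the start. The nearest boxes were 24 bases apart in Ivd, which held 3, and 41 bases apart in Mccc1. The GC box (GGGCGG) was found in 5 of 6 windows, all but that of Ivd, against 60.2% of the windows of tested genes and 30.5% of all windows, and it did not overlap a CCAAT box. No member window held the E box CACGTG, the core of the cyclic AMP response element TGACG, the amino acid response element core TGATGNAA, the PPAR core AGGTCA or the ERR motif TNAAGGTCA, whose last letters are the PPAR core. Windows of tested genes held these in 8.46%, 28.8%, 1.66%, 10.6% and 0.474%, and all windows in 5.59%, 18.2%, 3.40%, 14.1% and 1.04%. With 6 windows these matches are a description, and a match is not evidence of binding.

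Bcat2 (ENSRNOG00000020956) encodes the mitochondrial transaminase that opens the pathway. It stood at 11.9, 7.15 and 7.41 FPKM in the sham samples and at 65.7, 26.1 and 27.1 FPKM in the I/R samples. The lowest I/R sample was above the highest sham sample, and replicate 1 was the high sample in both groups. The means were 8.82 ± 2.67 and 39.6 ± 22.6 FPKM (SD, n = 3 each), a log2 fold change of 2.05 with an SE of 0.37 (95% interval 1.22 to 2.89, adjusted p = 0.0051, limma). Its cytosolic counterpart Bcat1 was far lower, at 0.407, 0.506 and 0.423 FPKM in sham and 1.11, 1.57 and 1.58 FPKM in I/R, and it rose by 1.47 on the log2 scale (SE 0.29, adjusted p = 0.0066, limma).

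The E1 part of BCKDH, which removes the carboxyl group, is built from an alpha subunit, Bckdha, and a beta subunit, Bckdhb. Bckdha (ENSRNOG00000020607) was at 1.81, 1.92 and 1.67 FPKM in sham and at 19.7, 4.22 and 5.03 FPKM in I/R. The sham samples lay close together and I/R replicate 1 stood far above its group, though the other I/R samples also exceeded every sham sample. The log2 fold change was 2.003 (SE 0.49, 95% interval 0.92 to 3.09, adjusted p = 0.0133, limma). Without I/R replicate 1 it was 1.31 (adjusted p = 0.0098, limma), and without sham replicate 2 the call was lost with a log2 fold change of 2.05 (adjusted p = 0.052, limma).

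Bckdhb (ENSRNOG00000009928) was the most abundant member by FPKM in both groups, at 26.1, 9.20 and 11.2 FPKM in sham and 97.2, 54.1 and 40.1 FPKM in I/R. Replicate 1 was again high in both groups, and the groups did not overlap. The means of 15.5 ± 9.23 and 63.8 ± 29.8 FPKM (SD, n = 3 each) gave a log2 fold change of 2.09 (SE 0.43, 95% interval 1.13 to 3.05, adjusted p = 0.0074, limma).

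Dbt (ENSRNOG00000015029) encodes E2, the core that carries the acyl group on lipoic acid. Its values were 3.37, 2.93 and 2.83 FPKM in sham and 8.21, 5.87 and 5.56 FPKM in I/R. The sham samples lay close together, I/R replicate 1 was the high sample of its group, and the groups did not overlap. The change was the smallest of the 8 called members, 1.06 on the log2 scale (SE 0.23, 95% interval 0.54 to 1.58, adjusted p = 0.0089, limma). Of all genes tested, 17.5% had a larger log2 fold change than Dbt, compared with 3.55% for Bckdha and 3.02% for Bckdhb. Dld, the E3 subunit that BCKDH shares with the pyruvate and oxoglutarate dehydrogenases, was at 16.2, 14.4 and 13.3 FPKM in sham and 48.6, 23.7 and 18.9 FPKM in I/R. Its groups did not overlap, but its log2 fold change of 0.93 did not pass (SE 0.33, adjusted p = 0.056, limma).

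Ppm1k (ENSRNOG00000006893) is the mitochondrial phosphatase that dephosphorylates E1 and so activates the complex. It was the least abundant member by FPKM in both groups, at 1.06, 1.93 and 1.86 FPKM in sham and 2.30, 1.09 and 0.789 FPKM in I/R. The groups overlapped: the highest and the lowest of all 6 values were both I/R samples. Its log2 fold change was -0.29 (SE 0.39, 95% interval -1.15 to 0.58, adjusted p = 0.597, limma), an interval that holds both a fall and a modest rise. The replicates numbered 1 lay apart here, with the lowest sham value and the highest I/R value. Without both of them, a setting chosen after the data were seen, Ppm1k was called lower with a log2 fold change of -0.96 (adjusted p = 0.038, limma).

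In the leucine arm, isovaleryl-CoA dehydrogenase (Ivd, ENSRNOG00000009421) takes the next step. It stood at 12.1, 7.03 and 5.94 FPKM in sham and 62.3, 23.4 and 25.3 FPKM in I/R, with no overlap. The log2 fold change was 2.05 (SE 0.40, 95% interval 1.15 to 2.95, adjusted p = 0.0064, limma), close to that of Bcat2.

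The following enzyme, methylcrotonyl-CoA carboxylase, has an alpha subunit that carries biotin, Mccc1, and a beta subunit, Mccc2. Mccc1 (ENSRNOG00000013293) measured 3.30, 3.68 and 3.09 FPKM in sham and 15.9, 7.10 and 6.83 FPKM in I/R. Mccc2 (ENSRNOG00000017752) measured 5.18, 3.15 and 2.83 FPKM in sham and 38.2, 13.1 and 13.3 FPKM in I/R. Neither gene's groups overlapped, and in both I/R replicate 1 was the high sample. Mccc2 showed the largest change of the members, 2.36 on the log2 scale (SE 0.42, 95% interval 1.43 to 3.29, adjusted p = 0.0045, limma), and only 1.69% of the genes tested had a larger one. Mccc1 rose by 1.43 (SE 0.32, 95% interval 0.70 to 2.15, adjusted p = 0.0102, limma).

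The valine arm was represented by Hibadh (ENSRNOG00000008063), 3-hydroxyisobutyrate dehydrogenase, whose substrate has been freed from coenzyme A and can leave the cell. It was at 6.19, 4.75 and 5.11 FPKM in sham and 36.4, 14.4 and 13.5 FPKM in I/R. The sham samples were close together and every I/R sample was above them. The log2 fold change was 1.83 (SE 0.36, 95% interval 1.02 to 2.64, adjusted p = 0.0065, limma). For each of the 8 called members the two-sided exact permutation test gave p = 0.1, the smallest it allows with 3 samples against 3, and for Ppm1k it gave p = 0.7.

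By mean FPKM, which is per gene length, the order in sham was Bckdhb, Bcat2, Ivd, Hibadh, Mccc2, Mccc1, Dbt, Bckdha and Ppm1k. Only Dbt and Bckdha were neighbours whose ranges did not overlap. After I/R the order ran Bckdhb, Bcat2, Ivd, Mccc2, Hibadh, Mccc1, Bckdha, Dbt and Ppm1k, and only Dbt and Ppm1k, at 6.55 ± 1.45 and 1.39 ± 0.797 FPKM (SD, n = 3 each), were neighbours with separate ranges. In all 6 samples Ppm1k was thus far below Bckdhb, Bcat2 and Ivd, while in sham its range overlapped that of Bckdha.

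Multiplying all values of a sample by a factor leaves the ratio of any pair of members within it nearly unchanged, so ratios were compared next. The log2 ratio of Dbt to Bckdha was 0.86, 0.59 and 0.72 in sham and -1.26, 0.47 and 0.14 in I/R. It was lower in every I/R sample than in any sham sample, by 0.94 on average (exact permutation p = 0.1, 0.2 adjusted over the 4 ratios), and without I/R replicate 1 the difference was -0.42. Mccc1 to Mccc2 likewise did not overlap, at -0.63, 0.22 and 0.12 in sham and -1.26, -0.87 and -0.95 in I/R, a difference of -0.93 (exact permutation p = 0.1, 0.2 adjusted). Both ratios thus stood lower after I/R in these samples, at the smallest p that the design allows. Bckdhb to Bckdha differed by 0.09 and Bcat2 to Bckdha by 0.05, both with overlapping groups (exact permutation p = 0.9 and p = 1.0, 1.0 adjusted for both), so the balance of the E1 subunits was not shown to differ.

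Ppm1k was also set against each other member, a comparison chosen after its values were seen. The log2 ratio of Ppm1k to Bckdha, an E1 subunit on which the phosphatase acts, was -0.73, 0.01 and 0.15 in sham and -3.05, -1.86 and -2.53 in I/R. Against Dbt the ratio was -1.59, -0.58 and -0.58 in sham and -1.79, -2.33 and -2.67 in I/R. In 8 of 8 such ratios every I/R sample lay below every sham sample, with mean differences from -2.65 to -1.35. These ratios share Ppm1k, the member picked because it was not called higher, so they restate its values beside those of the others and carry no test.

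**Figure D2:**
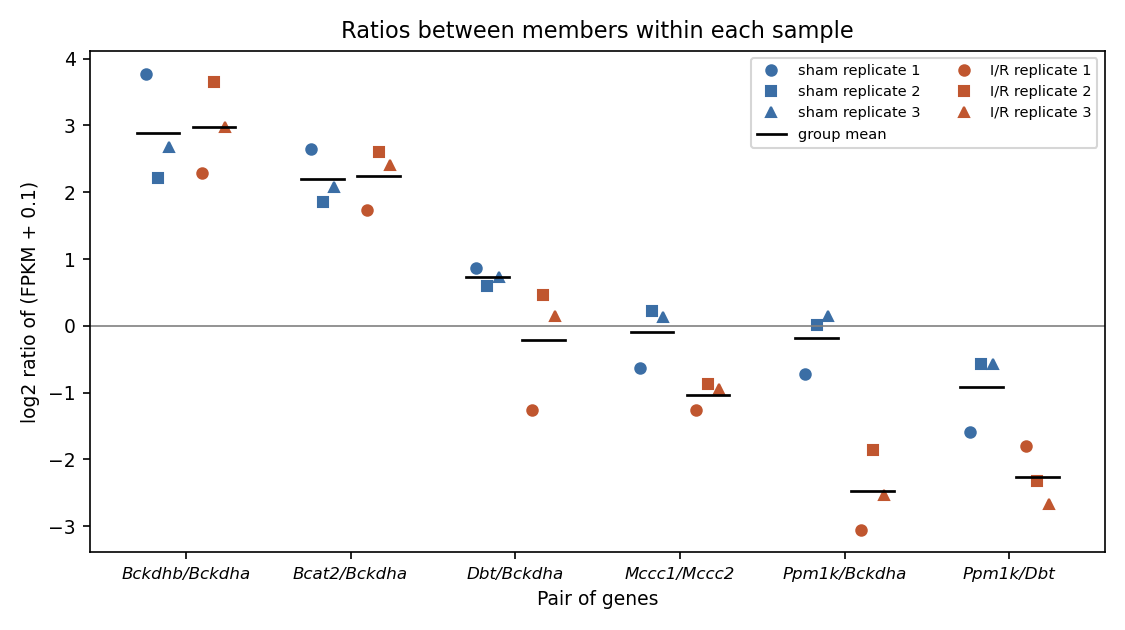
Log2 ratio of (FPKM + 0.1) between pairs of members in each sample, sham in blue and I/R in orange, with bars for the group means. Dbt/Bckdha, Mccc1/Mccc2, Ppm1k/Bckdha and Ppm1k/Dbt are lower in every I/R sample, while Bckdhb/Bckdha and Bcat2/Bckdha overlap.

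Since the cardiomyocyte markers also differed, each member was expressed relative to their mean log2 level in the same sample. That mean was 8.96, 7.80 and 7.41 in sham and 10.74, 10.11 and 10.08 in I/R, so the markers were higher in every I/R sample. On this scale 8 of the 9 members had a mean difference below 0. The median over all 10942 genes tested was -1.96, with 8923 called lower and 35 higher (limma). Bcat2 differed by -0.20, Bckdha by -0.25, Bckdhb by -0.17, Ivd by -0.21, Hibadh by -0.42 and Mccc1 by -0.83, and Mccc2 by 0.11, all with overlapping groups. On this scale these 7 genes did not separate the groups. Dbt and Ppm1k were lower in every I/R sample, by 1.19 and by 2.54 on average (exact permutation p = 0.1 each, 0.45 adjusted over the 9 members). Dbt lay above the median of all genes on this scale and Ppm1k below it.

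The scale of the whole sample mattered in the same way. When FPKM was rescaled over the genes that are not mitochondrially encoded, the median of all genes tested moved from 0.29 to -0.46 and 6 members were called higher. Of all 10942 genes tested, 793 were then called higher and 2857 lower. Dbt, at 0.29 (adjusted p = 0.40, limma), and Mccc1, at 0.66 (adjusted p = 0.115, limma), lost the call. Centred on the cardiomyocyte markers, 0 members were called higher, while Dbt at -1.19 (adjusted p = 0.049, limma) and Ppm1k at -2.54 (adjusted p = 0.00068, limma) were called lower. The median of all genes tested was then -1.96, with 35 called higher and 8923 lower. Direction for Bcat2, Bckdha, Bckdhb, Dbt, Hibadh, Ivd and Mccc1 thus depended on the reference, whereas Ppm1k had the lowest value of the 9 members on each scale tried.

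**Figure D3:**
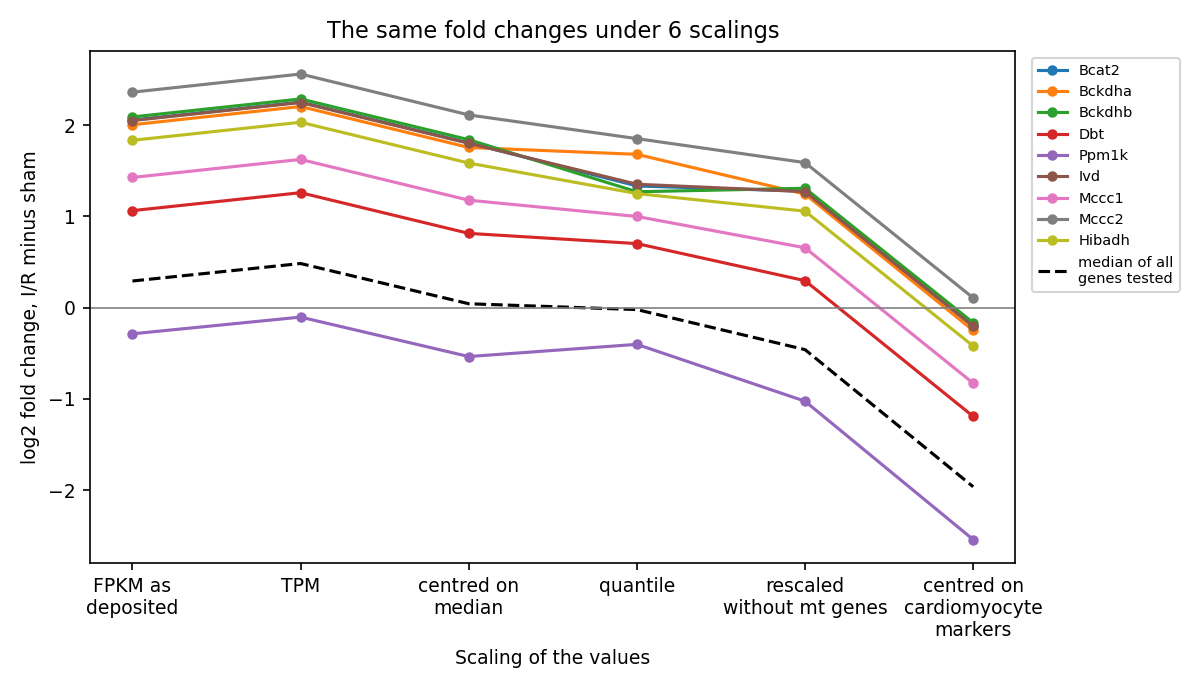
Log2 fold change (I/R minus sham) of each member under different scalings of the values, with the median of all genes tested dashed. All 9 members are lowest when centred on the cardiomyocyte markers, where Ppm1k is at -2.54 and Mccc2 at 0.11, and on each scale 8 members are above the median and Ppm1k is below it.

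The rest of the pathway comprised 24 further genes, of which 21 were tested: 12 were higher, 0 were lower and 9 did not pass, with a median of 1.34. Of all genes tested, 25.5% were higher and 7.36% lower, with a median of 0.29. Pcca, the biotin-carrying subunit of propionyl-CoA carboxylase, was at 5.45, 2.56 and 2.04 FPKM in sham and 23.1, 12.2 and 10.2 FPKM in I/R, a log2 fold change of 2.18 (SE 0.40, adjusted p = 0.0052, limma). Echs1, the mitochondrial enoyl-CoA hydratase that also serves fatty acid oxidation, rose by 2.15 (SE 0.47, adjusted p = 0.0087, limma). Both had no overlap between the groups. Acad8 and Hibch, enzymes of the valine arm upstream of Hibadh, overlapped between the groups, with log2 fold changes of 0.21 (adjusted p = 0.62, limma) and 0.51 (adjusted p = 0.28, limma). Aldh6a1, the enzyme downstream of Hibadh, also overlapped, at 0.57 (adjusted p = 0.44, limma), whereas Echs1, which acts between Acad8 and Hibch, was called higher. These 3 genes were named after their values were seen, and their difference from Hibadh was not tested.

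At the entry to the pathway, the 7 transport and transamination genes held 3 that were higher, 1 lower and 3 that did not pass, with a median of 0.38, close to the 0.29 of all genes tested, of which 25.5% were higher and 7.36% lower. Slc7a5, the light chain of the LAT1 exchanger that carries leucine across the plasma membrane, was at 0.329, 0.22 and 0.314 FPKM in sham and 2.18, 3.76 and 3.63 FPKM in I/R. Its low sham level rose by 3.06 on the log2 scale (SE 0.30, adjusted p = 0.00061, limma), and unlike the members it was lowest in I/R replicate 1. Its heavy chain Slc3a2 rose by 1.28 (SE 0.22, adjusted p = 0.0042, limma). Slc43a1, the facilitative transporter LAT3, fell by 0.86 (SE 0.23, adjusted p = 0.021, limma). Slc25a44, the mitochondrial carrier of these amino acids, was at 0.38 and did not pass (SE 0.23, adjusted p = 0.24, limma), although its groups did not overlap.

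**Figure D4:**
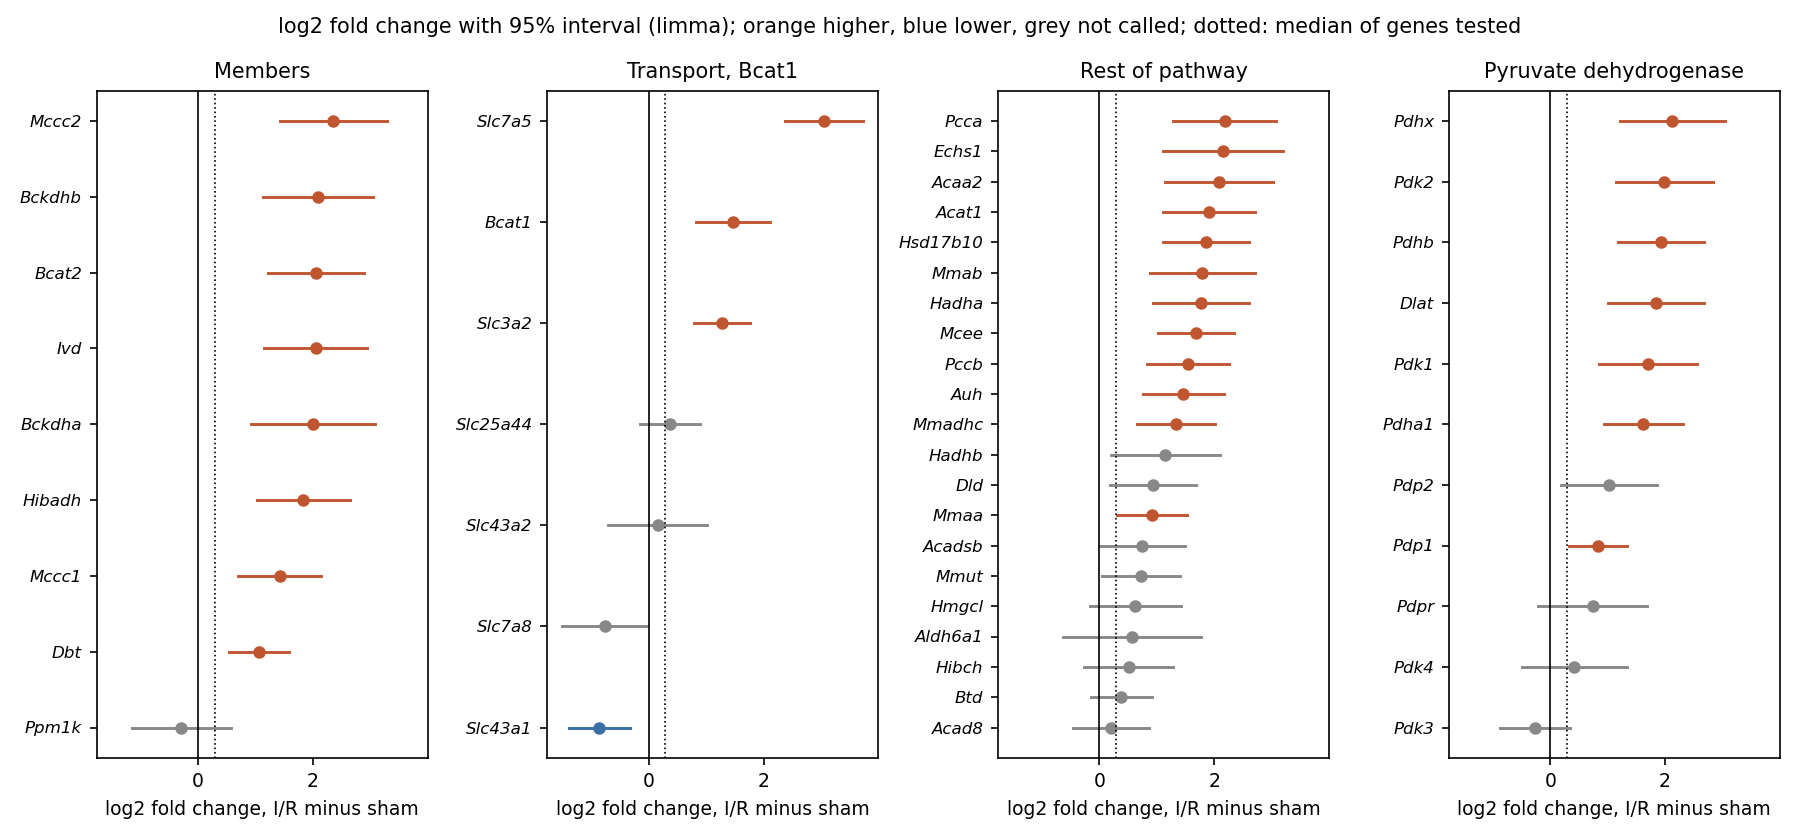
Log2 fold changes (I/R minus sham) with 95% intervals from limma for the members, the transport and transamination genes, the rest of the pathway and the pyruvate dehydrogenase genes, coloured by call. The dotted line is the median of all genes tested, 0.29, and Ppm1k, at -0.29, is the only member whose interval includes 0.

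Of 5 regulators, 2 were higher and 3 did not pass. Their median of 0.22 lay below the 0.29 of all genes tested, of which 25.5% were higher and 7.36% lower. Ppargc1a, the coactivator of mitochondrial gene expression, was higher by 1.84 (SE 0.28, adjusted p = 0.0032, limma), and so was Glul, glutamine synthetase, by 0.74 (SE 0.23, adjusted p = 0.034, limma). Klf15, a transcription factor known to drive amino acid breakdown genes in the heart, was at 5.74, 7.07 and 4.72 FPKM in sham and 8.84, 5.34 and 6.48 FPKM in I/R, and its change of 0.22 did not pass (SE 0.26, adjusted p = 0.54, limma). Among 10 tested genes of leucine sensing by mTORC1, 3 were higher, 1 was lower and 6 did not pass, with a median of 0.45, and these shares lay near the 25.5% higher and 7.36% lower of all genes tested. The GTPases Rragd, at 1.78 (SE 0.40, adjusted p = 0.010, limma), and Rraga, at 1.04 (SE 0.22, adjusted p = 0.0082, limma), were higher, and the arginine sensor Castor1 fell by 1.39 (SE 0.28, adjusted p = 0.0066, limma).

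The pyruvate and oxoglutarate dehydrogenases are built on the same plan as BCKDH. The counts that follow stand beside 25.5% higher, 7.36% lower and a median of 0.29 over all genes tested. Of the 11 pyruvate dehydrogenase genes, 7 were higher, 0 lower and 4 did not pass, with a median of 1.62, led by Pdhx at 2.12 (SE 0.41, adjusted p = 0.0059, limma). Their kinases, the counterparts of Bckdk, did not move as a block. Pdk2 at 1.99 (SE 0.38, adjusted p = 0.0058, limma) and Pdk1 at 1.70 (SE 0.38, adjusted p = 0.010, limma) were higher, whereas Pdk4 at 0.42 (adjusted p = 0.45, limma) and Pdk3 at -0.26 (adjusted p = 0.48, limma) did not pass. Of the phosphatases, Pdp1 was higher by 0.84 (SE 0.23, adjusted p = 0.020, limma), and Pdp2, at 1.02, did not pass (adjusted p = 0.060, limma). Neither was tested against Ppm1k. For the oxoglutarate dehydrogenase, 3 of 4 tested genes were higher and 1 did not pass, with a median of 1.70 and values of 1.91 for both Ogdh and Dlst. Of 5 genes of other biotin-dependent carboxylases, the enzyme group of Mccc1 and Mccc2, 3 were higher, 1 was lower and 1 did not pass, with a median of 1.41. The highest were Pcca and its partner subunit Pccb, at 1.55 (SE 0.32, adjusted p = 0.0076, limma), and the lower gene was Acacb, the acetyl-CoA carboxylase of the mitochondrial surface, at -1.10 (SE 0.30, adjusted p = 0.021, limma).

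On the log2 scale the median change of the cardiomyocyte markers was 2.28. Of the fibroblast markers 1 of 7 was called higher and of the endothelial markers 0 of 7. The smooth muscle and the pan-leukocyte markers had 0 of 5 each, and none of these lists held a gene called lower. Over all genes tested, 25.5% were higher and 7.36% lower. The pan-leukocyte markers had a median of -0.21, with 2 of 5 above 0. Among them Ptprc, at -0.93, was below every sham sample in every I/R sample but did not pass (adjusted p = 0.067, limma). Neutrophil and monocyte markers were higher in 3 of 5, with a median of 1.60 (S100a9 at 1.89, Cd14 at 1.73 and S100a8 at 1.60), and macrophage markers in 1 of 7 with 2 lower. The 1 adipocyte marker and the 3 red cell markers that were tested did not pass. Neutrophil and monocyte markers summed to 51.7 to 67.6 FPKM in sham and 79.0 to 145.1 FPKM in I/R, and fibroblast markers to 592 to 785 FPKM and 804 to 862 FPKM, so these sums, like the cardiomyocyte sums, did not overlap. Endothelial markers summed to 150 to 199 FPKM in sham and 162 to 190 FPKM in I/R, which overlapped. Differences between the marker lists were not tested.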

How the data were processed

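Total RNA of 3 sham and 3 I/R samples was sequenced, and what the authors deposited is a single table of FPKM, already normalised for gene length and library size. The submitters' processing notes name STAR and HTSeq without a role. Their versions, the genome build and the annotation are not given in the sources used here, and neither is the total divided by. Columns were assigned by name. The 30452 rows (7092 without a symbol) gave 28293 genes after rows with the same symbol were summed.

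The log2(FPKM + 0.1) values of the 10942 genes whose mean FPKM reached 0.5 were fitted with limma 3.58.1 in R 4.3.3 (eBayes with a trend), and p-values were adjusted over all of them by the Benjamini-Hochberg method. The pipeline was tested on simulated data. Single values were compared with two-sided exact permutation tests (scipy 1.17.1, Python 3.11.15), which cannot give a p under 0.1 with 3 samples against 3. FPKM holds no read counts, so counting error could not be given. The members and lists were chosen with earlier results of these data known, and no set test was run. All members were named. Of each other pathway list, the 2 called genes with the largest positive and negative changes were named. Bcat1, Slc25a44, Dld, Klf15 and Pdk1 to Pdk4 were named whatever their values. Of the cell type markers only S100a8, S100a9, Cd14 and Ptprc were named with values. The 7 cardiomyocyte markers with a row were Myh6, Tnnt2, Tnni3, Actc1, Myl2, Ryr2 and Actn2. Slc3a2, Acad8, Hibch, Aldh6a1, Pdp1, Pdp2 and Ptprc were added after their values were seen.

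Replicate numbers come from the labels. Departures from the group mean correlated between samples of 1 number at 0.20, 0.12 and 0.12 for replicates 1, 2 and 3. Samples of different numbers were not compared in this way, so these values do not show whether the numbers pair the samples. The main fit treated the samples as unpaired, and a blocked fit was an alternative. Of 6 ratios planned between members, 4 were computed, since Bckdk is not analysed here. Alternatives were other pseudocounts, filters, scalings and thresholds, no trend, the highest row per symbol, and each sample left out. Promoter sequences are from RefSeq (GRCr8), whose build was not matched to the table.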

Additional observations from a re-analysis of the deposited data

How the results depend on the processing

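Folds of the 9 members kept their sign under pseudocounts of 1 and 0.01, TPM, centring on the median, quantile normalization and rescaling without mitochondrially encoded genes. A filter at a mean FPKM of 5 left 7 members, without Dbt and Ppm1k, and all 7 stayed higher. The scaling decided the balance of the whole table. Against 2790 genes higher and 805 lower (77.6% of calls higher), there were 3449 and 504 as TPM (87.3%), 2020 and 1554 centred on the median (56.5%), 1441 and 1559 with quantile normalization (48.0%), 793 and 2857 without mitochondrially encoded genes (21.7%), 35 and 8923 centred on the cardiomyocyte markers (0.391%), 1892 and 166 with the filter at 5 (91.9%), 152 and 47 with no filter, and 1185 and 211 at an adjusted p under 0.01. The member median was 1.27 with quantile normalization, 1.24 without mitochondrially encoded genes and -0.25 centred on the markers. Centred so, values were -0.20 for Bcat2, -0.25 for Bckdha, -0.17 for Bckdhb, -1.19 for Dbt, -0.42 for Hibadh, -0.21 for Ivd, -0.83 for Mccc1, 0.11 for Mccc2 and -2.54 for Ppm1k, with 0 members higher.

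With no filter, which adds genes near 0, 0 members passed in limma although their folds were as before (Bcat2 2.05, Bckdha 2.003, Bckdhb 2.09, Dbt 1.06, Hibadh 1.83, Ivd 2.05, Mccc1 1.43, Mccc2 2.36) and 8 had an unadjusted p under 0.05. Without mitochondrially encoded genes Dbt was at 0.29 and Mccc1 at 0.66. At an adjusted p under 0.01 Bckdha (2.003) and Mccc1 (1.43) were lost. Ppm1k was at -0.96 without both replicates numbered 1, a setting added after the data were seen. With quantile normalization Bckdhb to Bckdha was -0.41, Bcat2 to Bckdha -0.35 and Bckdha relative to the markers 0.23. Mccc2 relative to the markers was -0.12 with a pseudocount of 1 and -0.38 without both replicates numbered 1. The causes were not tested.

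With each sample left out, the number higher was 1528 to 2557 and the number lower 309 to 881. The fewest higher genes came without sham replicate 3 (1528, with 359 lower), and 309 were lower without sham replicate 2. The members called higher numbered 7 to 8 and their median was 1.37 to 2.25. Ranges were 1.62 to 2.29 for Bcat2, 1.31 to 2.41 for Bckdha, 1.73 to 2.54 for Bckdhb, 0.89 to 1.17 for Dbt, -0.69 to 0.021 for Ppm1k, 1.37 to 2.08 for Hibadh, 1.60 to 2.35 for Ivd, 1.03 to 1.64 for Mccc1 and 1.85 to 2.62 for Mccc2. The sign of Ppm1k turned without I/R replicate 3. Ratios ranged from -1.28 to -0.42 for Dbt to Bckdha, -0.25 to 0.53 for Bckdhb to Bckdha, -1.20 to -0.78 for Mccc1 to Mccc2 and -0.13 to 0.31 for Bcat2 to Bckdha. Relative to the markers the ranges were -0.42 to 0.021 for Bcat2, -0.73 to 0.055 for Bckdha, -0.34 to 0.0043 for Bckdhb, -1.57 to -0.92 for Dbt, -3.26 to -2.10 for Ppm1k, -0.77 to -0.12 for Hibadh, -0.44 to -0.05 for Ivd, -1.29 to -0.56 for Mccc1 and -0.19 to 0.26 for Mccc2.

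With the replicate block, 3085 genes were higher and 895 lower, 8 members were higher, and the block changed no member's call. FPKM gives no depth per gene, which limits what can be said of Ppm1k and of others near 1 FPKM.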
